A study of Mus musculus with 20 samples.

Results

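Transcripts of 10 metalloprotease genes, 5 of the ADAM family (Adam8, Adam9, Adam10, Adam17 and Adam19) and 5 of the MMP family (Mmp8, Mmp9, Mmp12, Mmp14 and Mmp19), were followed in mouse dendritic cells grown from bone marrow (BMDCs). They were chosen by gene symbol from the 24421 genes of the count table, with no measured value in the rule, and all 10 were among the 12465 genes that passed the filter on low counts. ADAM proteins are membrane-anchored proteases that cut the outer parts of other surface proteins, a process called shedding. MMPs (matrix metalloproteases) cut collagens, elastin and other matrix proteins, and most are secreted as inactive proenzymes. Dendritic cells and macrophages are known to use both families when they release cytokines, shed receptors and cross tissue barriers.

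BMDCs were grown from the marrow of 5 wild-type C57BL/6 mice (A to E) with the growth factor GM-CSF at 40 ng/mL for 8 days. The cells of each mouse were divided into 4 groups, named iBET Ova, iBET IC, DMSO Ova and DMSO IC, which gave 20 bulk RNA-seq libraries with 1 library per mouse and group. iBET is I-BET151, a small molecule that keeps BET bromodomain proteins from binding acetylated histones, used at 3.3 µM. DMSO is its solvent, Ova is soluble ovalbumin, and IC is ovalbumin bound by IgG, which cross-links Fcγ receptors. Ova or IC was given for 4 hours. The labels state that drug and stimulus were added together, whereas the methods place iBET before the stimulus, and 5% DMSO is stated in the labels for the solvent groups only. The labels also say that cells were sorted into lysis buffer but name no gate, so the culture is taken as a mixture. In bulk RNA, fewer cells of a type and less RNA per cell cannot be told apart.

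Libraries held 16447491 to 29245150 counts, with a median of 21764663. Levels are given as CPM, the counts scaled to a common library size after TMM scaling, and errors are the SD between mice. Of 8 dendritic cell markers 7 were tested, and their summed level was 4548 to 9634 CPM over all libraries, with the defining genes Itgax, H2-Ab1 and Cd74 present in each group. The 10 monocyte and macrophage markers summed to 1113 to 2320 CPM. The 10 neutrophil markers in the table, of which 8 were tested, summed to 18.4 to 64.4 CPM, and the B cell, T cell, NK cell and stromal lists each stayed at or under 1.06 CPM. Erythroid markers summed to at most 6.51 CPM, the eosinophil, basophil and mast cell list to 40.1 to 138 CPM, and the 4 proliferation genes to 244 to 459 CPM. Mice A and B differed from mice C, D and E in several members. These sets were seen in the data, the labels name no batch, and each comparison was also made within each set.

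The most abundant member was Mmp12, macrophage elastase, which ranked 9 among the 12465 tested genes by mean CPM. It lies on chromosome 9 (GRCm38, chr9:7344381-7369499, plus strand) and shares 157 bp of exon with Mmp1b on the opposite strand, which had 0 to 1 counts per library. Its level in DMSO Ova libraries was 10131, 7679, 4848, 5199 and 6839 CPM in mice A to E. In DMSO IC it was 10939.9, 9280.5, 7482, 7254 and 7841 CPM. Mice A and B were the highest in both groups, and the Ova and IC values overlapped. In iBET Ova libraries the level was 10359, 8372, 5928, 5506 and 6953 CPM, and in iBET IC it was 12559, 10857, 7607, 8153 and 7625 CPM. Mmp12 alone made up 73.7% to 85.6% of the counts of the 10 members, so a sum over the family would describe little else.

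**Figure D1:**
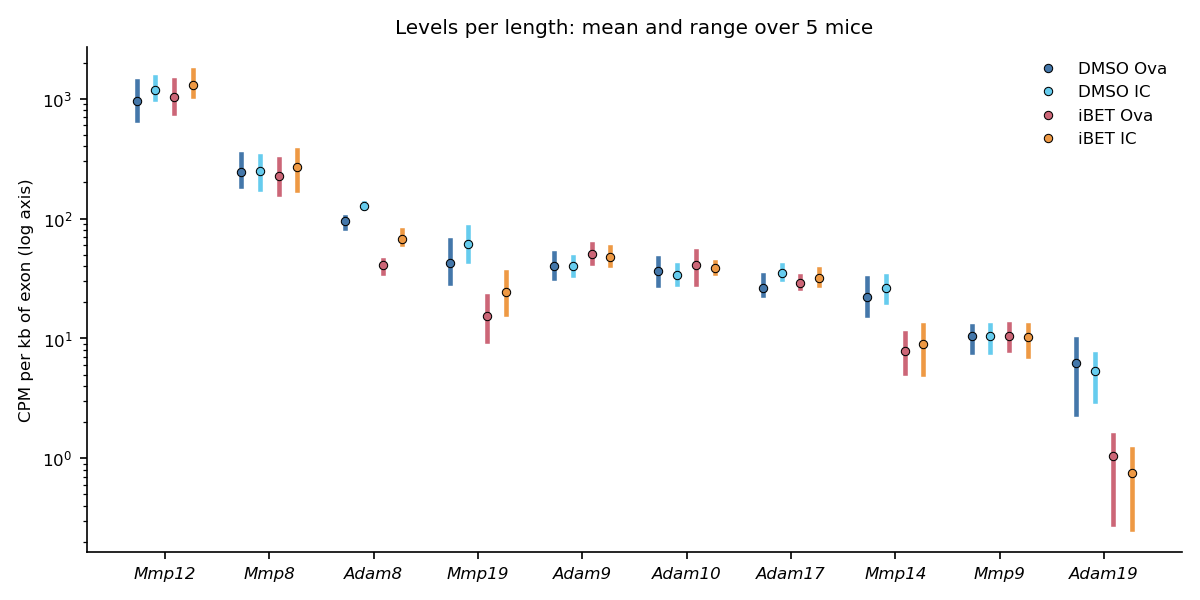
Levels of the 10 members per kilobase of annotated exon, on a log axis, with the mean of 5 mice (circle) and the range from the lowest to the highest mouse (bar) in each group. Mmp12 is highest in all groups, Mmp9 sits near 10.4 CPM per kb throughout, and Adam8, Mmp14, Mmp19 and Adam19 are displaced downwards in the 2 iBET groups.

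Divided by the length of the annotated exons, levels in DMSO Ova ran from 959 ± 294 CPM per kb for Mmp12 to 6.27 ± 3.61 for Adam19 (SD, n = 5). Mmp8, neutrophil collagenase, followed at 243 ± 77.1 CPM per kb and Adam8 at 94.8 ± 7.77, and the ranges of these top 3 genes did not touch each other. Mmp19, Adam9, Adam10, Adam17 and Mmp14 came next at mean levels from 42.7 down to 22.1 CPM per kb, and each overlapped its neighbour in the order. Mmp9, gelatinase B, had 10.4 ± 1.86 CPM per kb and overlapped Adam19 below it but not Mmp14 above it. In iBET Ova the order changed. Adam8 stood at 41.1 ± 3.88 CPM per kb, within the range of Adam10, and Mmp14 at 7.85 ± 2.41 had moved below Mmp9.

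Mmp8 (chr9:7558456-7568485, plus strand) was abundant beside the neutrophil markers. Its level was 842, 736, 455, 449.6 and 459.7 CPM in the DMSO Ova libraries of mice A to E, and 388 to 902 CPM over all 20 libraries. Mice A and B, with 687 to 902 CPM over the 4 groups, stood above mice C, D and E, with 388 to 557 CPM. The summed neutrophil markers went the other way, at 18.4 to 25.2 CPM in A and B and 24.3 to 64.4 CPM in C, D and E. Mmp8 thus exceeded the whole neutrophil list in each library. Mmp8 and Mmp12 belong to a run of 10 Mmp genes over 427.1 kb of chromosome 9 (from Mmp13 to Mmp7). Between and beside them, Mmp13 (collagenase-3) had 99 to 565 counts per library and Mmp27 had 0 to 17. Mmp1a had no count in any library, which in the smallest library allows up to 0.182 CPM (3 counts), and Mmp1b, Mmp3, Mmp7, Mmp10 and Mmp20 had between 0 and 3 counts per library.

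iBET lowered 4 of the 10 members with Ova and the same 4 with IC: Adam8, Adam19, Mmp14 and Mmp19. No member was called higher with either stimulus in the main fit. Among all tested genes, 56.6% passed in the Ova comparison and 56.1% in the IC comparison, and 28.9% and 29% passed as lower. For genes called lower with both stimuli the share over the table was 25.2%. The 4 of 10 members called thus stood below the share of all genes called in either direction and above the share called lower, and with 10 genes the difference was not tested. Values of the iBET and DMSO groups did not overlap in 4 members with either stimulus, beside 38% of tested genes with Ova and 42.8% with IC. The median log2 fold change of the members was -0.04 with Ova and -0.08 with IC, beside medians of -0.0029 and -0.0054 over all tested genes. A gene was called at a Benjamini-Hochberg adjusted p under 0.05 over all tested genes. The test was the quasi-likelihood test of edgeR with 5 mice per group, and this main fit had no term for the mouse. With the mouse as a replicate block, 2 members passed as higher and 4 as lower with Ova. With IC, 1 passed as higher and 5 as lower under that block. The block called 68.7% of all tested genes with Ova and 68% with IC, in either direction.

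**Figure D2:**
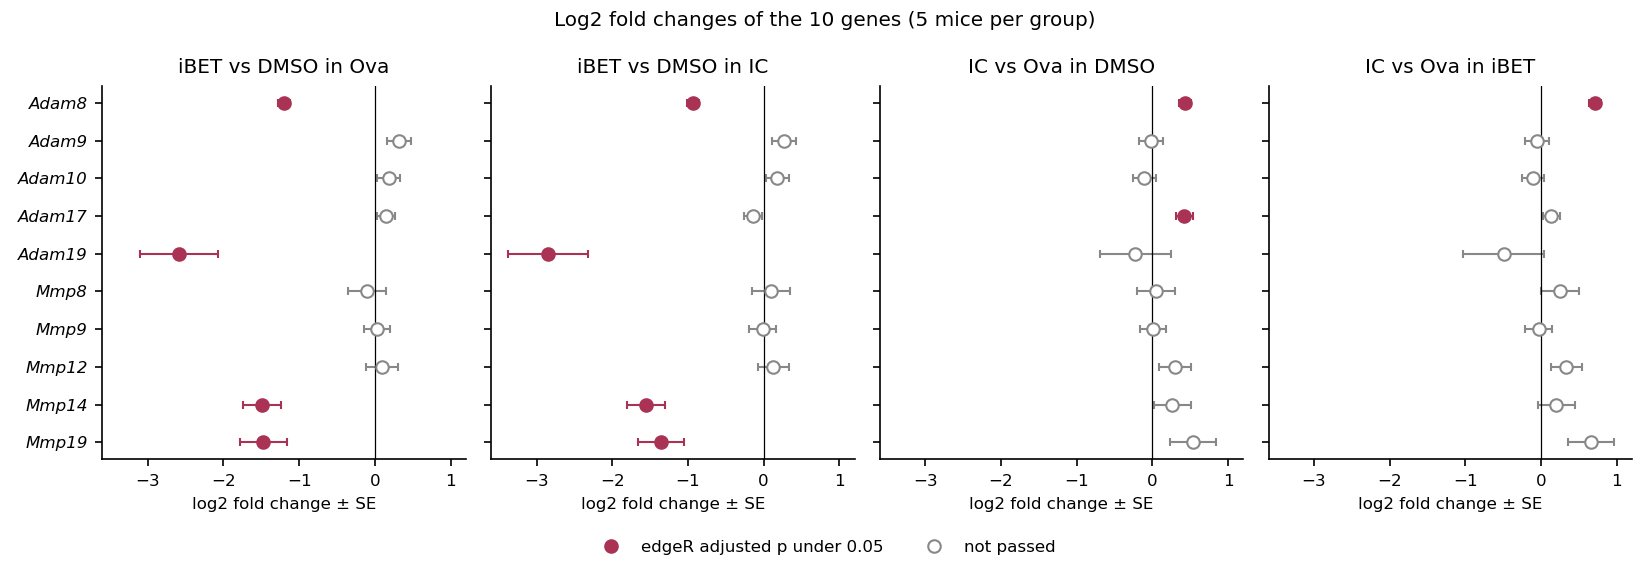
Log2 fold change with its standard error for each member in the 4 pairwise comparisons, with filled points for an edgeR adjusted p under 0.05 and open points for members that did not pass. Filled points lie at -2.85 to -0.93 in the iBET comparisons and at 0.42 to 0.71 in the IC comparisons.

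Adam19, a disintegrin metalloprotease also known as meltrin beta that sheds neuregulins, had the largest fall of the 10. It lies at chr11:46055992-46147343 on the plus strand. In DMSO Ova its levels were 17.7, 16.6, 70.9, 62.8 and 55.1 CPM in mice A to E, and in iBET Ova they were 3.6, 2.01, 11.1, 10.9 and 9.62 CPM. In DMSO IC they were 23.3, 21.5, 50.4, 43.1 and 52.4 CPM, and in iBET IC 2.59, 1.82, 8.59, 6.77 and 7.23 CPM. Every iBET value lay under every DMSO value with the same stimulus, and in each group mice A and B lay under mice C, D and E. The log2 fold change was -2.58 ± 0.516 (SE, n = 5) with Ova, a level 5.99 times lower, with an edgeR adjusted p of 0.000266. With IC it was -2.85 ± 0.529, a level 7.22 times lower, with an edgeR adjusted p of 0.000127. The lowest libraries held 37 counts of Adam19, so counting error is larger there than for the other members. Dendritic cell markers also had their lower sums in mice A and B (4548 to 6221 CPM, against 6156 to 9634 CPM in C, D and E), and the eosinophil, basophil and mast cell list summed to 40.1 to 59.5 CPM in A and B and to 88.3 to 138 CPM in the others. The part of these cells in the level of Adam19 was not tested.

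Mmp14, the membrane-type protease MT1-MMP that cleaves collagen at the cell surface and activates proMMP2, fell with iBET in 5 of 5 mice with either stimulus. The gene occupies chr14:54431612-54445364 on the plus strand. DMSO Ova libraries had 191, 142, 116, 116 and 93.2 CPM in mice A to E, and iBET Ova libraries 65.8, 55.8, 45.9, 35.8 and 30.8 CPM. DMSO IC libraries had 197, 186, 145, 142 and 121 CPM, and iBET IC libraries 77.4, 68.1, 46.6, 45.8 and 30.4 CPM. The groups did not overlap. With Ova the log2 fold change was -1.49 ± 0.249, which is 2.81 times lower (edgeR adjusted p = 4.07e-05). With IC it was -1.56 ± 0.249, which is 2.94 times lower (edgeR adjusted p = 2.45e-05). Unlike Adam19, Mmp14 was highest in mice A and B, yet the within-mouse falls were alike, from -1.99 to -1.33 on the log2 scale over the 10 pairs of libraries.

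Mmp19, a secreted protease that cuts basement membrane proteins, is encoded at chr10:128790910-128800824 on the plus strand. Its levels were 192, 234, 104, 122 and 102 CPM in DMSO Ova and 77.8, 79.3, 42.1, 39.4 and 33.4 CPM in iBET Ova, in mice A to E. In DMSO IC they were 303, 273, 166, 194 and 157 CPM, and in iBET IC 127, 112, 63.2, 68.8 and 57.1 CPM. No iBET library reached a DMSO library with the same stimulus. With Ova the log2 fold change was -1.47 ± 0.31, or 2.77 times lower (edgeR adjusted p = 0.000448). For IC it was -1.35 ± 0.308, or 2.56 times lower (edgeR adjusted p = 0.000902). Mmp19 shares 789 bp of exon with Tmem198b on the opposite strand, and the strand setting of the counting is not given in the sources used here. Tmem198b held 2.95 to 17.4 CPM, well under Mmp19. It fell with iBET as well, with log2 fold changes of -1.78 and -1.62 (edgeR adjusted p of 7.63e-11 and 2.93e-10). For IC against Ova with DMSO, Tmem198b differed by -0.34 (edgeR adjusted p = 0.0268) and Mmp19 by 0.54 (edgeR adjusted p = 0.228). Without the strand setting, reads of the shared exons cannot be assigned to either gene.

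Adam8, a leukocyte protease that sheds adhesion molecules, had the smallest fall of the 4 and the tightest values. It lies at chr7:139978932-139992562 on the minus strand. Levels in mice A to E were 424, 385, 478, 450.2 and 461 CPM in DMSO Ova and 188, 163, 208, 187 and 206 CPM in iBET Ova. They were 592, 568, 615, 568 and 626 CPM in DMSO IC and 284, 296, 371, 304 and 302 CPM in iBET IC. The 4 groups did not overlap at all, with the order iBET Ova, iBET IC, DMSO Ova and DMSO IC from lowest to highest. iBET gave levels 2.31 times lower for Ova, a log2 fold change of -1.21 ± 0.081 (edgeR adjusted p = 2.4e-10). For IC the levels were 1.91 times lower, a log2 fold change of -0.93 ± 0.0804 (edgeR adjusted p = 7.87e-09). The 4 falling genes passed the test with both stimuli under each of the 14 alternative settings, mice A and B alone and mice C, D and E alone included.

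**Figure D3:**
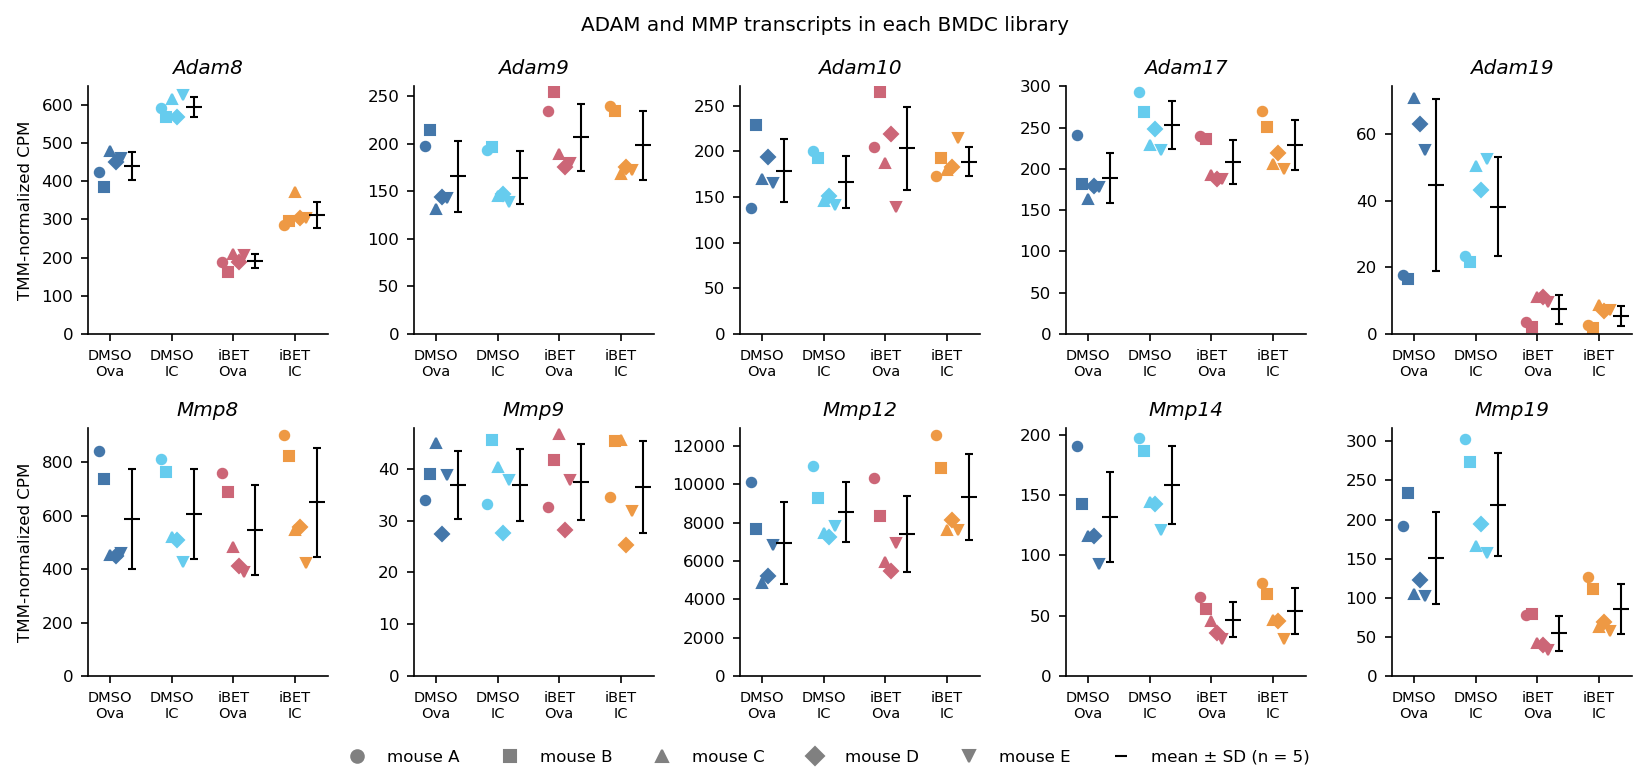
CPM of each member in all 20 libraries, with 1 symbol per mouse and the mean ± SD of 5 mice beside each group (linear axes from 0). Adam8, Adam19, Mmp14 and Mmp19 separate by drug within each stimulus. Mice A and B lie apart from mice C, D and E in each group for Mmp8, Mmp12, Adam9, Adam17, Adam19, Mmp14 and Mmp19.

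The 250 bases before the annotated start of the falling members are shown, with Mmp12, which did not pass, beside them. The sequences are RefSeq promoter entries on GRCm38.p6, written 5′ to 3′ on the strand of the gene, and none of these windows overlaps an annotated exon. Adam19 has 3 windows in the table and Mmp12 has 2, and the one with the AP-1 letters is shown for each. Capitals mark the AP-1 motif TGANTCA. The PU.1 motif GAGGAAGT and an NF-κB motif of 10 letters were also searched, all on either strand. The table has no entry for Mmp19.
Adam19, chr11:46055734-46055983, plus strand: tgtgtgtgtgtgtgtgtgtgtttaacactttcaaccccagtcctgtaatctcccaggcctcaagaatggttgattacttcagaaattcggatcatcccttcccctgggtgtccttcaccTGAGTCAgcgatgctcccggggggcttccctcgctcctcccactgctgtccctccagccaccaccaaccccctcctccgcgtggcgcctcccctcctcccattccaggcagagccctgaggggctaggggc
Mmp14, chr14:54431348-54431597, plus strand: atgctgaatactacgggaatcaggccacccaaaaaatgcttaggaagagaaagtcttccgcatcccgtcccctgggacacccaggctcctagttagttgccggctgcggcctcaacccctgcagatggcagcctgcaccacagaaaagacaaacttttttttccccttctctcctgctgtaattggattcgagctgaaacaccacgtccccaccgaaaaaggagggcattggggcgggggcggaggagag
Adam8, chr7:139992563-139992812, minus strand: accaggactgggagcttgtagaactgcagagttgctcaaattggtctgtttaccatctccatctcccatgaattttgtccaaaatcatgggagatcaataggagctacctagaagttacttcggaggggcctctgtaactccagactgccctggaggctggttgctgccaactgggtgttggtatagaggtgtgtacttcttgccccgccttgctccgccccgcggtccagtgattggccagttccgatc
Mmp12, chr9:7347124-7347373, plus strand: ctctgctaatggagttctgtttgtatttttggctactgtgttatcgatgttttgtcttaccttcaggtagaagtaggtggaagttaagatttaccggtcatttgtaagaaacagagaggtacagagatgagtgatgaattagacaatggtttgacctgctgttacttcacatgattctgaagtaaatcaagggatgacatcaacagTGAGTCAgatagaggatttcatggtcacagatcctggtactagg
The AP-1 letters begin 131 bases before the start in Adam19 and 44 bases before it in Mmp12, where the window belongs to the second of 2 annotated starts. The window of the first Mmp12 start holds the PU.1 letters 88 bases before it and no AP-1 letters, and the other 2 windows of Adam19 hold none of the 3 motifs. Neither the Adam8 nor the Mmp14 window holds any of them. Among other members that did not pass, the windows of Adam10 and Adam17 hold none, and that of Mmp8 holds the PU.1 letters 221 bases before the start. Over 32851 promoter windows of the same length, 6.75% held the AP-1 letters, 2.44% the PU.1 letters and 0.356% the NF-κB letters.

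The other 6 members did not pass for iBET in the main fit. Adam10 and Adam17 are the main sheddases of most cells, and Adam17 is the enzyme that releases TNF. Adam10 (chr9:70678997-70780229, plus strand) differed by 0.18 ± 0.15 with Ova and 0.18 ± 0.15 with IC on the log2 scale, and single mice went from -0.24 to 0.60. Adam17 differed by 0.15 ± 0.114 on the log2 scale for Ova (edgeR adjusted p = 0.291). For IC it differed by -0.14 ± 0.114 (edgeR adjusted p = 0.306) and was lower in 5 of 5 mice. With the mouse as a replicate block both Adam17 values passed, at 0.15 (edgeR adjusted p = 0.0155) and -0.14 (edgeR adjusted p = 0.0176). Adam9 (chr8:24949611-25016927, minus strand), a widely expressed ADAM, was higher with iBET in 5 of 5 mice with both stimuli, by 0.32 ± 0.158 (edgeR adjusted p = 0.0938) and 0.27 ± 0.158 (edgeR adjusted p = 0.15). Its iBET and DMSO values overlapped because mice A and B were higher throughout, and it passed with the replicate block (edgeR adjusted p of 4.12e-06 and 3.94e-05). With that block 68.7% of all tested genes passed with Ova and 68% with IC.

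Mmp12, Mmp8 and Mmp9 gave small differences. Mmp12 differed by 0.10 ± 0.21 with Ova and 0.13 ± 0.21 with IC on the log2 scale, and Mmp8 by -0.11 ± 0.253 and 0.10 ± 0.253. Mmp9 (chr2:164940780-164955850, plus strand), which cuts denatured collagen and basement membrane collagen, had group means of 36.8 ± 6.58 and 36.9 ± 6.87 CPM in DMSO Ova and DMSO IC, and 37.4 ± 7.32 and 36.5 ± 8.85 CPM in the matching iBET groups. Its iBET differences were 0.02 ± 0.175 and -0.01 ± 0.175 on the log2 scale (edgeR adjusted p of 0.913 and 0.952). At the spread of the main fit, which has no term for the mouse, differences of that size could not be told from none. Mmp12, Mmp8 and Mmp9 did not pass with the replicate block either (edgeR adjusted p from 0.0894 to 0.792 over both stimuli).

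Some cell type markers were also called with iBET. Over all tested genes 56.6% were called with Ova and 56.1% with IC, 28.9% and 29% as lower. The summed monocyte and macrophage markers ranged over 1502 to 2275 CPM in DMSO Ova and 1113 to 1585 CPM in iBET Ova, and over 1692 to 2320 CPM in DMSO IC and 1186 to 1843 CPM in iBET IC, and the groups overlapped. Of the 10 genes, 5 were lower and 1 higher with Ova, and 3 lower and 1 higher with IC. Among these markers Csf1r fell (-0.83 and -0.68 on the log2 scale), as did C1qb and Cd14, while Adgre1 and Ly6c2 did not pass. Of the dendritic cell markers Flt3 fell (-3.66 and -2.91) and Itgax, H2-Ab1 and Cd74 did not pass. Of 8 tested neutrophil markers 2 were lower and 1 higher with either stimulus. Cxcr2 fell (-2.08 and -2.41 on the log2 scale), as did Csf3r (-0.74 and -0.51), and Mpo, which encodes myeloperoxidase, rose from 0 to 2 counts per DMSO library to 4 to 22 counts per iBET library. In the eosinophil, basophil and mast cell list Siglecf fell (-0.48 and -0.51) and the other 3 tested genes did not pass. Of 4 proliferation genes 1 was lower with Ova and 3 with IC, Ccna2 in both (-0.42 and -0.70). The part of these markers in the falls of Adam8, Adam19, Mmp14 and Mmp19 was not tested.

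In the main fit, immune complexes raised 2 members with DMSO and 1 with iBET. Over all tested genes 20.3% passed with DMSO and 11.8% with iBET, 9.59% and 5.19% as higher. The members' median log2 fold change was 0.15 with DMSO and 0.17 with iBET, against -0.024 and -0.014 over all tested genes. Both IC comparisons use libraries that the iBET comparisons use too, and their values are set side by side without a further test.

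Adam8 was higher with IC in 5 of 5 mice with either drug condition, and the Ova and IC values did not overlap. The log2 fold change was 0.43 ± 0.0799 with DMSO (edgeR adjusted p = 0.000829) and 0.71 ± 0.0803 with iBET (edgeR adjusted p = 7.7e-06). It was the only member whose Ova and IC groups were separate, beside 12.4% of tested genes with DMSO and 10% with iBET. Levels in iBET IC nevertheless remained under those of DMSO Ova in all mice.

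Adam17 (chr12:21323509-21373632, minus strand) was the other member raised by IC with DMSO. It had 241, 181, 164, 179 and 178 CPM in DMSO Ova and 294, 269, 229, 248 and 223 CPM in DMSO IC. It had 239, 236, 193, 188 and 187 CPM in iBET Ova and 270.2, 250.3, 206, 219.8 and 199 CPM in iBET IC. Each mouse was higher with IC in both conditions, but the library of mouse A in DMSO Ova was above 2 of the IC libraries. The log2 fold change was 0.42 ± 0.114 with DMSO (edgeR adjusted p = 0.0136) and 0.13 ± 0.114 with iBET (edgeR adjusted p = 0.51). The call with DMSO was lost without mouse B (edgeR adjusted p = 0.0594), without mouse C (edgeR adjusted p = 0.0566) and without mouse D (edgeR adjusted p = 0.0709), and in mice A and B alone (edgeR adjusted p = 0.127). Adam17 shares 311 bp of exon with Iah1 on the opposite strand, which had 62 to 93.3 CPM and differed by 0.10 between IC and Ova on the log2 scale in both conditions (edgeR adjusted p of 0.57 and 0.632).

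With IC, 5 members were higher in every mouse with DMSO and 5 with iBET, beside 17.8% and 16.6% of tested genes, and several of them did not pass. Mmp19 was higher in 5 of 5 mice by 0.54 ± 0.303 with DMSO (edgeR adjusted p = 0.228) and 0.65 ± 0.306 with iBET (edgeR adjusted p = 0.178), and Mmp12 by 0.30 ± 0.21 and 0.33 ± 0.21 (edgeR adjusted p of 0.341 and 0.341). Mice A and B were higher than the others for both genes, which widened the spread within groups. With the mouse as a replicate block 5 members passed as higher with DMSO, namely Adam8, Adam17, Mmp12, Mmp14 and Mmp19, beside 18.3% of all tested genes. With iBET 4 members passed as higher under that block, namely Adam8, Mmp8, Mmp12 and Mmp19, beside 14.2% of all tested genes. For Mmp8 the edgeR adjusted p was 0.0025. Adam19 passed as lower (-0.47, edgeR adjusted p = 0.0407), beside 14.7%. Blocked values for Mmp19 were 0.57 (edgeR adjusted p = 5.62e-06) and 0.67 (edgeR adjusted p = 2.01e-06), and for Mmp12 0.34 (edgeR adjusted p = 0.00102) and 0.34 (edgeR adjusted p = 0.00125). With DMSO, Adam19 was higher with IC in mice A and B (0.39 and 0.37 on the log2 scale). It was lower in mice C, D and E (-0.49, -0.54 and -0.07).

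**Figure D4:**
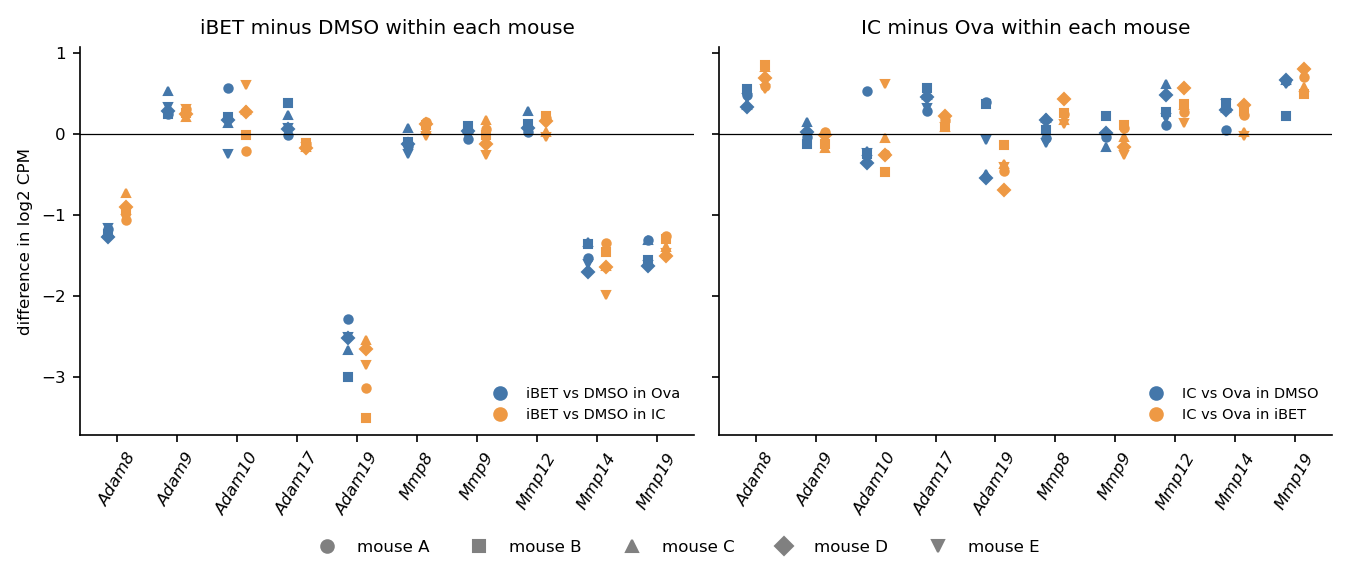
Differences in log2 CPM within each mouse, for iBET minus DMSO (left) and IC minus Ova (right), with 1 symbol per mouse and 1 colour per comparison. Adam8, Adam19, Mmp14 and Mmp19 lie below 0 for iBET in each mouse, and Mmp12, Mmp19, Adam8 and Adam17 lie above 0 for IC in each mouse.

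Whether the iBET effect depended on the stimulus was tested as an interaction. None of the 10 members passed with edgeR, where 0.0401% of tested genes did. At an unadjusted p under 0.05 the only member was Adam8, whose edgeR quasi-likelihood p was 0.0246 before adjustment. For Adam17 the iBET effect with IC minus that with Ova was -0.29 ± 0.162 and below 0 in 5 of 5 mice (edgeR adjusted p of 1.0 without and 0.0688 with the replicate block). DESeq2 made no call without the block. With the block it called Adam17 (-0.29, DESeq2 adjusted p = 0.0104) and Adam8 (0.27, DESeq2 adjusted p = 0.0236), beside 1.55% of tested genes.

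The profiles most like those of the 4 falling members were found by the root mean square difference of centred log2 CPM over the 20 libraries. Pogk (0.157) and Nrp2 (0.166) were closest to Adam8, and Gbp5 (0.24) and Mab21l3 (0.276) to Adam19. Mr1 (0.207) and Cd84 (0.213) were closest to Mmp14, and Slc7a2 (0.238) and Clmp (0.242) to Mmp19. For comparison, the values of the members themselves varied around their own mean by 0.621, 1.63, 0.874 and 0.909.

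Few other genes of the families were detected. Of 28 further ADAM genes 8 were tested, and with iBET Adam12 fell and Adam4 rose with either stimulus. Adam4 changed by 1.17 and 1.15 on the log2 scale. Adam12 stood at 1.93 to 4.13 CPM in DMSO Ova and 0.24 to 0.64 CPM in iBET Ova (log2 fold change -3.01 ± 0.309, edgeR adjusted p = 8.28e-08). With IC it differed by -2.24 (edgeR adjusted p = 5.33e-06). The median over the tested ADAM genes was 0.14 with Ova and -0.04 with IC on the log2 scale. Of 24 ADAMTS and ADAMTS-like (Adamtsl) genes, secreted relatives that bind matrix, 5 were tested. Adamts7 and the ADAMTS-like genes Adamtsl4 and Adamtsl5 were called lower with Ova, and Adamts7 with IC. Adamts7 was lower with either stimulus, at 6 to 30 counts per DMSO library and 0 to 5 counts per iBET library.

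Of 18 other MMP genes 7 were tested, and Mmp17 and Mmp28 rose while Mmp25 fell with iBET in both comparisons. Mmp17, a membrane-anchored protease (MT4-MMP), had 0 to 3 counts in each DMSO library and 31 to 60 in each iBET library. Summed over mice, 7 counts in DMSO Ova stood against 236 in iBET Ova, a ratio of 35.7 with an exact interval of 17 to 89.7, and 2 counts in DMSO IC against 243 in iBET IC, a ratio of 121 with an interval of 33.1 to 1002. These are 95% intervals for counting error only. Mmp25, leukolysin, went from 33 to 115 CPM in DMSO Ova down to 7.15 to 26.6 CPM in iBET Ova, a log2 difference of -2.02 ± 0.491 (edgeR adjusted p = 0.0016). Like Adam19 it was lower in mice A and B. With IC it fell by 1.91 (edgeR adjusted p = 0.00254). The largest change among the tested MMP genes thus lay in a gene almost absent from the DMSO libraries.

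**Figure D5:**
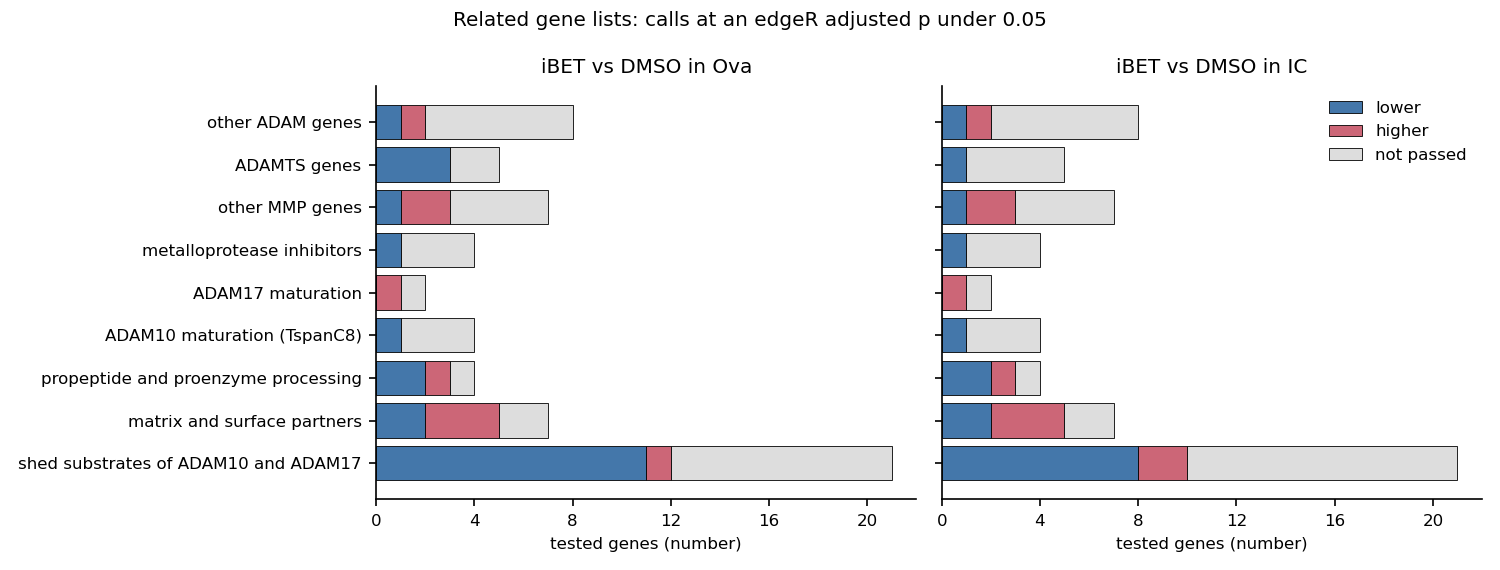
Number of tested genes that passed as lower, passed as higher or did not pass for iBET against DMSO, in the related gene lists, with Ova (left) and IC (right). Of 21 shedding substrates 11 were lower with Ova and 8 with IC, beside 28.9% and 29% of all tested genes.

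Transcripts for proteins that control these enzymes changed in part. Among 4 tested inhibitors only Timp3, an inhibitor of Adam17 and Adam10, passed for iBET in the main fit. It had 1.13 to 8.52 CPM in DMSO Ova. With iBET it changed by -1.55 ± 0.5 with Ova and -1.80 ± 0.528 with IC (edgeR adjusted p of 0.0123 and 0.00667). With the replicate block 4 of these inhibitors passed with Ova, 1 as higher and 3 as lower, and 2 passed as lower with IC. That block called 68.7% of all tested genes with Ova and 68% with IC, in either direction. Timp1 and Timp2 were more abundant, with means of 15.7 and 37.2 CPM in DMSO Ova, and did not pass in the main fit. Rhbdf2 (iRhom2), which brings Adam17 to the surface of myeloid cells, was 1 of 2 tested genes of Adam17 maturation and rose with iBET by 0.28 and 0.24 and with IC by 0.43 and 0.39 on the log2 scale, in 5 of 5 mice each time (edgeR adjusted p from 0.00448 to 0.0464).

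Tetraspanins of the TspanC8 group carry Adam10 to the surface, and 4 of 6 were tested. Tspan33 fell by 1.91 and 1.85 with iBET, and Tspan5 rose with IC by 0.72 and 0.65 on the log2 scale. Of the genes that activate proenzymes 4 were tested, and with iBET 1 was higher and 2 lower under each stimulus. The share called over all tested genes was 56.6% with Ova and 56.1% with IC. Furin, a proprotein convertase of many metalloproteases, rose with IC from 234 to 478 CPM with DMSO (log2 fold change 1.03 ± 0.0811, edgeR adjusted p = 5.28e-08) and from 202 to 332 CPM with iBET (0.72 ± 0.0808, edgeR adjusted p = 7.38e-06). With iBET it fell by 0.21 and 0.52 on the log2 scale. Pcsk7, another proprotein convertase, rose with iBET by 0.39 and 0.48 (edgeR adjusted p of 5.18e-05 and 5.68e-06). Plau, urokinase, which generates plasmin, differed by -1.70 ± 0.318 between iBET and DMSO with Ova and by -1.84 ± 0.315 with IC (edgeR adjusted p of 0.000139 and 5.36e-05).

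Of 21 tested genes for proteins that Adam10 or Adam17 can shed, 11 were lower and 1 higher with iBET and Ova, and 8 lower and 2 higher with IC. Over all tested genes 56.6% and 56.1% were called, 28.9% and 29% as lower. The median log2 fold change of the 21 was -0.32 and -0.29. Cxcl16, a membrane chemokine shed by Adam10, went from 259 ± 34.3 to 66.7 ± 8.5 CPM with Ova, a log2 fold change of -1.96 ± 0.135 (edgeR adjusted p = 3.45e-10). In the Ova comparison Selplg, the ligand of P-selectin, changed by -1.48 on the log2 scale. Hbegf, the growth factor precursor shed by Adam17, rose by 2.01 ± 0.454 with Ova (edgeR adjusted p = 0.000842), from 0.406 to 2.17 CPM in DMSO Ova to 3.24 to 7.76 CPM in iBET Ova, and it also passed as higher with IC (edgeR adjusted p = 0.00429). With IC, Tnf, the substrate for which Adam17 is named TACE, rose by 1.78 ± 0.323 with DMSO and 1.10 ± 0.314 with iBET (edgeR adjusted p of 0.000737 and 0.0264). Between iBET and DMSO, Tnf differed by 0.68 ± 0.323 with Ova (edgeR adjusted p = 0.0795) and by 0.0054 ± 0.306 with IC (edgeR adjusted p = 0.989). Its iBET effect with IC minus that with Ova was -0.67 ± 0.444 and did not pass.

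All 7 genes of the surface partners, the integrins, CD44, basigin and syndecan that dock MMPs or matrix, were tested. With iBET 3 were higher and 2 lower under each stimulus, beside 56.6% (Ova) and 56.1% (IC) of all tested genes called. Sdc4, syndecan-4, rose by 0.84 with Ova and 1.33 with IC on the log2 scale. Itga4, the α4 integrin, had values of -0.82 and -0.69, both called lower. Itgb3, the β3 integrin, was called lower with iBET at -0.57 and -0.35, and rose with IC by 0.91 with DMSO and 1.13 with iBET.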

How the data were processed

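Bulk RNA was prepared with a stranded low-input kit (SMARTer Pico) and sequenced. Per the labels and methods, the authors trimmed the reads (Trim Galore), used HISAT2 for alignment against mm10, and obtained gene counts from featureCounts. The deposited table holds raw counts per gene symbol, which were used as deposited. A second deposited table of normalized values was not used. The annotation, strand setting and treatment of reads that match several genes are not given in the sources used here.

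Libraries were kept as 4 groups of 5 mice, with groups and mice from the labels. Genes passed filterByExpr, were scaled by TMM and entered a quasi-likelihood fit on the 4 groups (edgeR 4.0.16, R 4.3.3, limma 3.58.1), with Benjamini-Hochberg adjustment and a threshold of 0.05. The methods name DESeq2 and sva without a design or batches. DESeq2 1.42.0 (Wald test, without and with the mouse), svaseq of sva 3.50.0 with 3 surrogate variables, the mouse as a replicate block, other scalings, no filter, each mouse left out and the 2 sets of mice were alternatives. The test was also run on counts simulated without a mouse effect, which leaves the pairing by mouse unchecked.

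The same letter names the same animal, so mice pair the libraries. Deviations from the group means correlated at 0.307 or more within a mouse (mean 0.524, 30 pairs) and at a mean of -0.156 between mice (160 pairs). Replicates differed beyond counting error (the lowest chi-square divided by its degrees of freedom was 13.2), so none was counted as a duplicate.

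Gene positions and exon lengths came from GENCODE M21 (GRCm38), where 23376 of 24421 symbols and all 10 members were found. Log2 values per library used a prior count of 2. Motifs were searched on both strands of the 250 bases before each RefSeq start, and were chosen with the fold changes known. Named genes are the 10 members, with values for all of them in both iBET comparisons and for some of them in the others. Also named are up to 4 genes with the largest change per related list and comparison, and neighbours in the chromosome 9 Mmp cluster. The 2 nearest profiles of each member called in both iBET comparisons complete them. Other genes were named after their values were seen. Members and lists were chosen with earlier results of these data known. Results for 2 genes of the marker and related lists are not reported here.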

Additional observations from a re-analysis of the deposited data

Results flagged for a closer look

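In 2 of the 40 combinations of member and group, 1 library stood apart from the other 4 by Dixon's gap test, and chance flags about 1 group in 20. Adam8 in the iBET IC library of mouse C was 371 CPM, with the next library at 304 CPM, so that this gap took 0.775 of the group's range. Adam17 in the DMSO Ova library of mouse A was 241 CPM, with the next library at 181 CPM and a gap of 0.776 of the range. Neither gene lost its direction when the mouse in question was left out.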

How the results depend on the processing

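The 4 falls with iBET kept their direction and passed in all 14 alternatives with both stimuli, and the count of members called for iBET was 4 to 6. For IC against Ova with DMSO the count of 2 became 5 with the replicate block, 4 with surrogate variables, 5 with DESeq2 and the block, 1 in mice A and B, 5 in mice C, D and E, and 1 to 2 with a mouse left out. For IC against Ova with iBET the count of 1 became 5 with the replicate block, 5 with surrogate variables, 6 with DESeq2 and the block, 2 in mice A and B and 3 in mice C, D and E. The interaction count of 0 became 2 with DESeq2 and the block. The cause of these differences was not tested.

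Of 50 results (10 members, 5 comparisons), 35 kept their sign in every setting and 15 did not. None of the 15 passed with the other sign. The largest value with a changed sign was 0.37, for Adam19 in mice A and B (IC, DMSO), against -0.23 in the main fit. All values are log2. With library size only, Mmp9 was -0.025 (iBET, Ova) and -0.11 (IC, DMSO), and Mmp8 -0.061 (IC, DMSO). With surrogate variables, Mmp9 was -0.0055 and 0.069 for iBET with Ova and IC, 0.17 for IC with iBET and 0.074 for the interaction, and for IC with DMSO Adam9 was 0.0075 and Adam10 0.093. In mice A and B, iBET with IC gave Adam10 -0.087 and Mmp9 0.039, IC with DMSO gave Adam10 0.094, Adam19 0.37 and Mmp8 -0.014, IC with iBET gave Mmp9 0.12, and the interaction gave Adam9 0.0596, Mmp9 0.015 and Mmp14 0.078. In mice C, D and E, IC with DMSO gave Adam9 0.064 and Mmp9 -0.049, IC with iBET gave Adam10 0.079, and the interaction gave Adam10 0.33 and Mmp12 -0.093. Without a filter Mmp9 was 0.0037 (iBET, IC). The interaction of Adam10 was 0.0204 with the replicate block, 0.00097 with size factors, 0.00029 with DESeq2 and 0.024 with DESeq2 and the block. With a mouse left out, Mmp9 ran from -0.063 to 0.041 (iBET, IC), -0.054 to 0.0603 (IC, DMSO), -0.087 to 0.015 (IC, iBET) and -0.0900 to 0.000404 (interaction), Adam9 from -0.042 to 0.023 (IC, DMSO) and -0.0803 to 0.0098 (interaction), Adam10 from -0.19 to 0.19 and Mmp12 from -0.0196 to 0.088 (interaction).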
